A study of Mus musculus with 238 samples.

Results

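Dietary restriction was compared with free feeding in the entorhinal cortex of aged mice. The members are all libraries that the labels place in entorhinal cortex of the diet cohort, 5 from restricted mice (labelled aDR, mice 61, 62, 64, 65 and 67) and 3 from freely fed mice (labelled AL, for ad libitum, mice 63, 66 and 69). These are 8 of the 238 libraries of a series that maps a dietary and a plasma intervention over the mouse central nervous system, and that also holds liver libraries. Both groups were female C57BL/6JN mice of 19 months, 1 library per mouse, and the restriction was the only labelled difference between them. The labels do not say how strong the restriction was, how long it lasted or at what hour tissue was taken. The other groups used were motor and visual cortex of the same cohort, each with 5 aDR and 4 AL mice, and entorhinal cortex of male C57BL/6JN mice of 19 months that were injected with young mouse plasma (YMP, 3 mice) or PBS (4 mice). Sex and experiment cannot be told apart in that last comparison. In bulk tissue, fewer cells of a type and less RNA per cell cannot be told apart.

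The entorhinal cortex is the main gateway between neocortex and hippocampus, and its superficial neurons, many of them marked by Reln or Calb1, project into the hippocampal formation. It is among the areas where Alzheimer pathology appears early. Restricted feeding is known to shift daily rhythms, to raise circulating glucocorticoids and to lower body temperature in mice, and each of these acts on known target genes. Clock proteins act through E-boxes in promoters, glucocorticoids through their nuclear receptor, and mild cooling raises a small set of RNA-binding proteins.

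The promoters of Ciart, Cry1 and Cirbp are shown because these genes are among the clock and cold-inducible genes that the results turn on. Each line gives the 250 bases before the start site, 5′ to 3′, from RefSeq on GRCm38.p6. Capitals mark the E-box CACGTG in Ciart (chr3:95882229-95882478, minus strand) and Cry1 (chr10:85185055-85185304, minus strand), and the letters TCCCCGCC, described for induction by mild cold, in Cirbp (chr10:80167589-80167838, plus strand).
Ciart: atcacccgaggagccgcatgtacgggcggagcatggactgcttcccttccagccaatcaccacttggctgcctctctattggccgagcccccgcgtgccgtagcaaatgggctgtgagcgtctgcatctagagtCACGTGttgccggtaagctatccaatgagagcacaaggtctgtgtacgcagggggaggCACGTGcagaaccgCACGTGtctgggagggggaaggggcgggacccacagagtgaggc
Cry1: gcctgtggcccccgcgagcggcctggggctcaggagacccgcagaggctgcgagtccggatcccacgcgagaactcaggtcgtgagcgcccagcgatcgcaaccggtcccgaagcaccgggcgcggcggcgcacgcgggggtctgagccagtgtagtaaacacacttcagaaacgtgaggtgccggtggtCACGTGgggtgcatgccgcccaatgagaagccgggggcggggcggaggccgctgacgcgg
Cirbp: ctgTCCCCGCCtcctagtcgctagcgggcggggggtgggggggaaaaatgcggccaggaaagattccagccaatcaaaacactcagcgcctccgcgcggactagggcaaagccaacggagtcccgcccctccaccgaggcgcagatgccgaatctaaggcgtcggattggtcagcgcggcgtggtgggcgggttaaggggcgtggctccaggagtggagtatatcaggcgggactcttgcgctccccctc
Ciart held 3 E-boxes, which begin 116, 58 and 44 bases before its start site, and Cry1 held 1, at 60 bases. The Cirbp window belongs to 1 of its 2 RefSeq start sites, and its motif begins 247 bases before that site. This window was taken because it holds the motif, so the choice fixed the match. Both motifs were searched on both strands and do not overlap. An E-box was present in 6.02% of 32851 promoter windows of this length and TCCCCGCC in 4.64%. Among the 20 clock genes with a window, 5 held an E-box (Bhlhe41, Ciart, Cry1, Per1 and Tef). The letters TCCCCGCC stood in 1 of 4 cold-inducible genes with a window (Cirbp), in 2 of the 20 clock genes (Arntl and Bhlhe41) and in 6 of 18 heat shock chaperones. A match describes the letters of the window and is not evidence of a bound site.

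Depth differed most within the freely fed group. The aDR libraries held 8.93 to 14.4 M counts and the AL libraries 2.22, 9.32 and 12 M, the lowest being mouse 63, and 14480 to 17499 genes had at least 1 count. The share of mitochondrial counts was 1.79% ± 0.165 (SD, n = 5) in aDR and 2.15% ± 0.354 (SD, n = 3) in AL, without overlap (two-sided exact permutation test, p = 0.0179, the smallest that the 56 splits allow, adjusted p = 0.0714 over 4 library measures). Its part in the results was not tested. No pair of replicates agreed within counting noise, so each mouse counted once.

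The tissue label was checked against markers in the freely fed mice. Reln, which marks a population of superficial entorhinal neurons, had a median of 61.2 CPM, counts scaled to the size of each library, in entorhinal cortex against 24.1 in motor and 28.9 in visual cortex. Calb1, marker of another superficial population, had 556 CPM against 189 and 278. Cux2 and Rspo1, genes of neocortical layers, were low: 14.4 and 0.885 CPM in entorhinal cortex against 65.5 and 43.7 in motor cortex. Lef1 did not follow the label (8.12 CPM against 9.49 and 12.9). Caudate putamen had similar medians of Reln (61.8 CPM) and Calb1 (516 CPM), so neither gene singles out entorhinal cortex. Of the markers of the hippocampal formation, Fibcd1 and Mpped1 had 51.3 and 454 CPM, beside 45.3 and 316 in posterior hippocampus. The other hippocampal markers were lower than there, such as Prox1 (10.5 beside 65.3 CPM). Several were nonetheless higher than in motor and visual cortex. Fibcd1 had 5.98 and 3.81 CPM there and Mpped1 212 and 244 CPM. C1ql2 (14.8 CPM against 0.508 and 0.826), Nts (4.42 against 0.029 and 0.038) and Fn1 (48.8 against 27.8 and 28.5) were higher too. Prox1 (14.0 and 15.3 CPM there) and Cpne4 (33.1 CPM against 33.2 and 43.6) were not. Ttr, the defining transcript of choroid plexus, was at most 2.12 CPM in any of the 8 libraries.

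The 8 pieces of tissue did not have the same make-up. The 14 genes of oligodendrocytes and myelin summed to 6564 and 14144 CPM in aDR mice 61 and 62, and to 721 to 2000.3 CPM in the other aDR mice against 799 to 2099.6 CPM in AL. Mouse 62 also stood apart in Pvalb (72.0 CPM, with 2.90 to 10.4 in the other 7 libraries). Mouse 64 had 181 CPM over the 10 markers of the hippocampal formation, where the other aDR mice had 593 to 748 and the AL mice 313 to 698. Its Fibcd1 was 2.81 CPM and its Calb1, at 1062 CPM, was the highest of the 8. AL mouse 69 was low on the same hippocampal list (313 CPM) and in Fibcd1 (7.16 CPM). All 14 myelin genes had a higher fitted level in aDR, with a median log2 difference of 1.32, and 0 of 14 had an unadjusted edgeR p under 0.05. Without mouse 62 that median was 0.62, and without mouse 64 11 of the 14 had such a p. Their part in the results that follow was not tested.

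**Figure D1:**
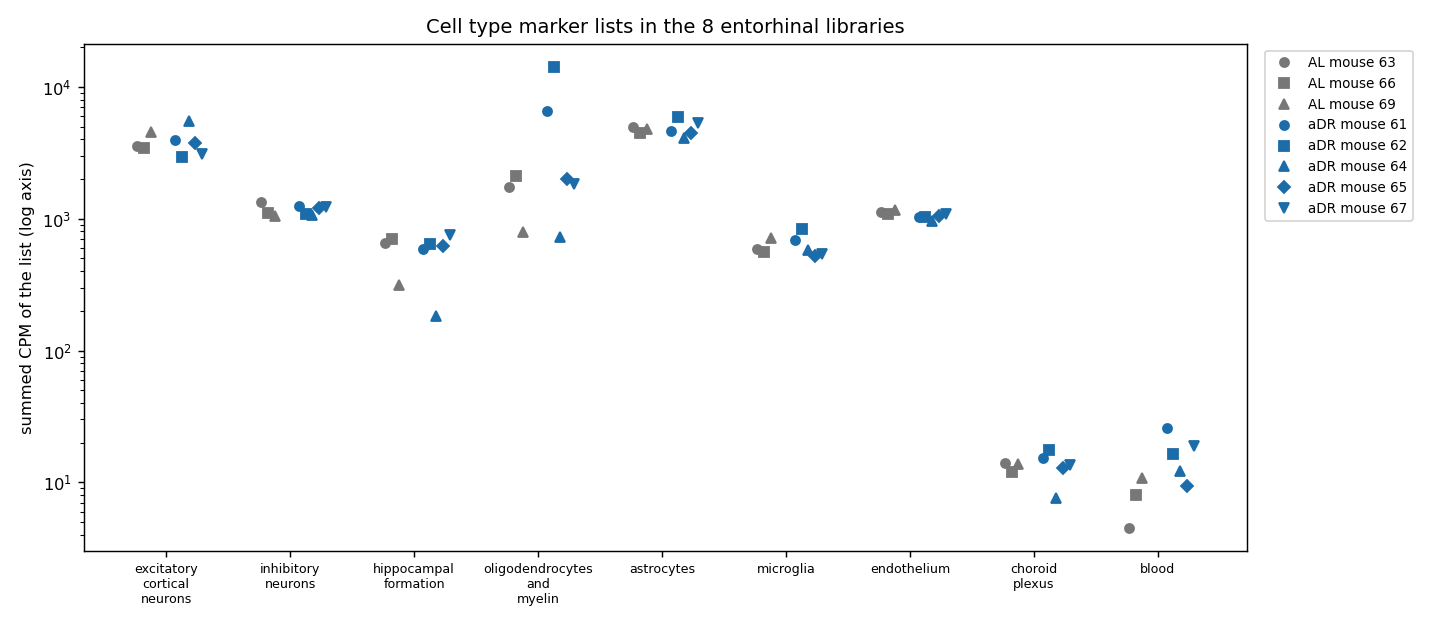
Summed CPM of 9 cell type marker lists (x axis) in each of the 8 entorhinal libraries, on a log axis, with AL mice in grey, aDR mice in blue and 1 symbol per mouse. The myelin list is highest in aDR mice 61 and 62 (6564 and 14144 CPM), the hippocampal list is lowest in aDR mouse 64 (181 CPM), and the endothelial list is lower in every aDR mouse than in every AL mouse, which rests on Bsg, 61.5% of that sum.

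Over all genes, the diet difference in entorhinal cortex was small beside the spread between mice. Of 14160 genes tested with edgeR, 0 (0%) had a Benjamini-Hochberg adjusted p under 0.05. The smallest adjusted value was 0.501, for Rbm3, so each gene named below missed the adjusted threshold in this fit. An unadjusted p under 0.05 was found for 593 genes (4.19%), 285 of them higher in aDR (2.01%) and 308 lower (2.18%). Without any true difference this threshold passes about 1 in 20 genes, and the share found lies below that. Of all genes tested, 7087 had a difference above 0 and 7073 below 0. These values are the background for every gene list described here. DESeq2, run as an alternative tool, called 5 of 18739 genes (0.0267%): Rbm3, Cirbp, Rtp1 and Etnppl were higher in aDR (0.0213%) and Fabp7 was lower (0.00534%). A fit that took its spread from entorhinal, motor and visual cortex together called 6 genes, with Rbm3, Cirbp and Fabp7 again among them beside Mthfd1l, Dleu2 and Mapk11, a stress-activated kinase that was named only because it was called. This fit had no mouse term, so libraries of the same mouse in different regions counted as independent. The median standard error of a log2 difference was 0.13. In 311 genes (2.2%) every aDR mouse was above every AL mouse, and in 276 (1.95%) every aDR mouse was below. The genes of smallest p on each side are therefore given as leading values, not as calls.

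**Figure D2:**
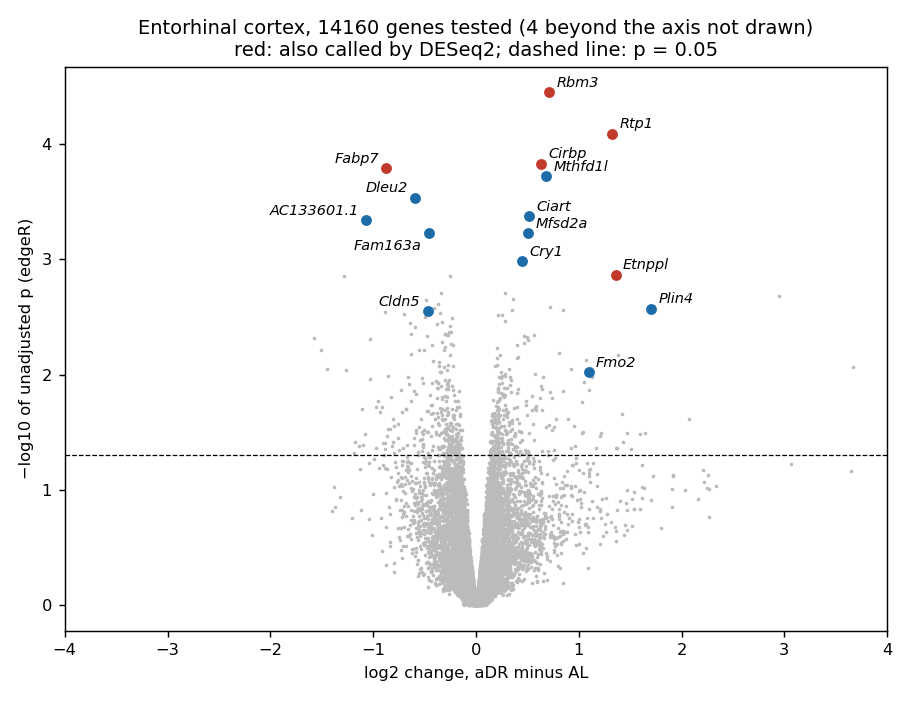
Log2 difference (x axis, aDR minus AL) against −log10 of the unadjusted edgeR p (y axis) for 14160 genes, with 15 named genes marked and those that DESeq2 also called in red. Rbm3, Rtp1, Cirbp and Mthfd1l lead among the genes higher in aDR and Fabp7 and Dleu2 among those lower, and 0 genes passed the adjusted threshold.

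Cold-inducible RNA-binding proteins gave the leading values. Rbm3 and Cirbp bind RNA and are known for their induction when body temperature falls slightly, and both were higher in all 5 aDR mice than in any AL mouse, by log2 differences of 0.71 and 0.63. Rbm3 (GRCm38 chrX:8138975-8145880, minus strand) measured 111, 98.7, 109, 102 and 88.0 CPM in aDR mice 61, 62, 64, 65 and 67, and 64.4, 55.6 and 66.1 CPM in AL mice 63, 66 and 69. The lowest aDR mouse was thus well above the highest AL mouse. The log2 difference was 0.71 (SE 0.097, 95% interval 0.50 to 0.93, edgeR adjusted p = 0.501; DESeq2 adjusted p = 5.73e-06). Rbm3 overlaps the antisense gene Rbm3os, and the libraries carry no strand, so reads of the pair cannot be told apart. Cirbp (chr10:80165985-80172786, plus strand) measured 220.3, 220.1, 222, 219 and 186 CPM in aDR and 162, 130.5 and 123 CPM in AL. Mouse 67 was the lowest of the aDR mice for both genes, and the AL mice spread more than the aDR mice for Cirbp. Its log2 difference was 0.63 (SE 0.10, 95% interval 0.40 to 0.86, edgeR adjusted p = 0.537; DESeq2 adjusted p = 1.39e-04). Leaving out each mouse in turn kept both differences positive, between 0.64 and 0.77 for Rbm3 and between 0.55 and 0.76 for Cirbp. The 3 other genes of the list, Hnrnpa1, Rbmx and Srsf5, had log2 differences of -0.10, 0.02 and 0.01.

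Within the circadian clock, Ciart, Cry1 and Dbp had higher values in aDR and the activator Arntl had lower ones. Of 25 clock genes tested, 3 were higher and 1 was lower at an unadjusted p under 0.05, beside 2.01% and 2.18% of all genes. Ciart, Cry1, Dbp and Arntl were all in a panel chosen with earlier results of these data known. These counts are therefore not independent of that choice. At the adjusted threshold 0 passed, and the median of the list was 0.08 against 0.00 over all genes. The counts were 6 higher and 0 lower without AL mouse 69, 3 and 3 without aDR mouse 64, 3 and 2 without AL mouse 63 and 3 and 0 without aDR mouse 61. Ciart, a repressor that acts on the CLOCK and BMAL1 activators, measured 38.0, 38.1, 41.2, 35.7 and 34.5 CPM in aDR and 26.3, 28.8 and 23.7 CPM in AL. Its groups did not overlap, and the log2 difference was 0.51 (SE 0.096, 95% interval 0.30 to 0.73, edgeR adjusted p = 0.807). Cry1, a core repressor of the same loop, measured 49.4, 46.6, 54.7, 42.7 and 45.2 CPM in aDR and 32.2, 36 and 35.7 CPM in AL, with a log2 difference of 0.45 (SE 0.096, 95% interval 0.24 to 0.67). Again every aDR mouse was above every AL mouse. Dbp, an output factor of the clock, measured 117, 132, 127, 117 and 123 CPM against 109.8, 101 and 93.8 CPM, which gave a log2 difference of 0.29 (SE 0.074, 95% interval 0.12 to 0.45). It overlaps Sphk2 on the other strand, so its reads may include that gene.

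Arntl, which encodes the activator BMAL1, measured 25.6, 32.3, 33.7, 31.4 and 31.5 CPM in aDR and 32.2, 35.8 and 54.3 CPM in AL. The groups overlapped, the high value was AL mouse 69, and the log2 difference of -0.43 (95% interval -0.80 to -0.06) was -0.15 without that mouse. Per1, which carries an E-box in its window and is both a clock and a glucocorticoid gene, measured 24.5, 22.8, 28.6, 29.3 and 26.0 CPM in aDR and 25.4, 25.9 and 28.0 CPM in AL. Its groups overlapped fully, with a log2 difference of -0.02 and a 95% interval from -0.25 to 0.22. Per2 (0.25), Nr1d1 (0.05) and Usp2 (0.16) likewise had overlapping groups. Per3 had separate groups, 42.3 to 52.2 CPM in aDR and 38.7 to 41.8 CPM in AL and a log2 difference of 0.20 (95% interval -0.01 to 0.40).

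**Figure D3:**
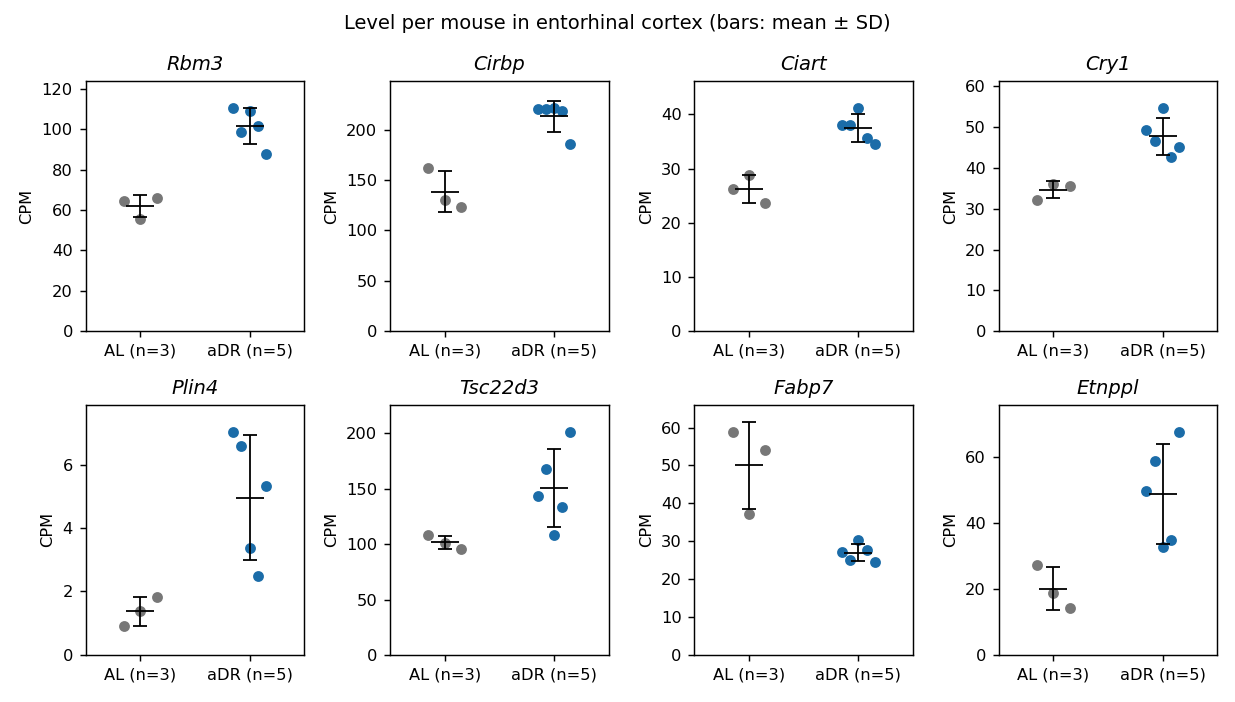
CPM per mouse (y axis, from 0) of 8 genes in entorhinal cortex, AL mice in grey and aDR mice in blue, with mean and SD as bars. For each of these genes the lowest value of one group lies beyond the highest of the other, closely so for Tsc22d3 (108.5 CPM in aDR mouse 64, 107.9 in AL mouse 63).

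Several glucocorticoid-responsive genes had higher values in aDR. Of 22 tested, 7 were higher in aDR and 0 lower at an unadjusted p under 0.05, beside 2.01% and 2.18% of all genes. A difference above 0 was found for 18, beside 7087 of all 14160 genes, and the median was 0.23. The 7 were Plin4, Fmo2, Tsc22d3, Hif3a, Fkbp5, Sult1a1 and Sgk1, and 0 passed the adjusted threshold. All of them but Sult1a1 were in the panel chosen with earlier results of these data known. The count of 7 is therefore not independent of that choice and is no separate support. The count ran from 4 to 10 when each mouse was left out in turn, 4 without aDR mouse 61, aDR mouse 67 or AL mouse 66 and 10 without aDR mouse 64. Plin4, a coat protein of lipid droplets, measured 7.04, 6.58, 3.36, 2.5 and 5.31 CPM in aDR and 0.907, 1.39 and 1.83 CPM in AL, a log2 difference of 1.70 (SE 0.42, 95% interval 0.75 to 2.65, edgeR adjusted p = 1). The groups were separate, though mouse 65 came near the AL range, and Plin4 overlaps Hdgfl2 on the other strand. Fmo2, a flavin monooxygenase, measured 4.25, 5.82, 4.63, 4.65 and 7.63 CPM against 2.72, 1.39 and 3.49 CPM. Hif3a, a member of the hypoxia-inducible factor family, measured 4.58, 3.21, 3.00, 3.53 and 6.06 CPM against 0.907, 2.04 and 2.33 CPM. Both had separate groups, with log2 differences of 1.10 (SE 0.34) and 1.05 (SE 0.34), with 95% intervals of 0.34 to 1.86 and 0.29 to 1.81. Fmo2 ranged from 0.75 without AL mouse 66 to 1.60 without AL mouse 69. Plin4, Fmo2 and Hif3a lie at low levels, at which the library of AL mouse 63, with 2.22 M counts, holds few reads.

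Tsc22d3, which encodes the glucocorticoid-induced leucine zipper protein, measured 143, 168, 108.5, 134 and 202 CPM in aDR and 107.9, 101 and 95.5 CPM in AL. Its groups touched at mouse 64, and the log2 difference was 0.58 (SE 0.18, 95% interval 0.17 to 0.98). Fkbp5, a co-chaperone of the glucocorticoid receptor, measured 92.0, 74.1, 65.6, 67.1 and 103 CPM in aDR and 49.4, 44.7 and 73.1 CPM in AL. Here AL mouse 69 lay within the aDR range, and the log2 difference of 0.51 (95% interval 0.05 to 0.97) was 0.78 without it. Sgk1, a kinase that glucocorticoids induce, measured 101, 92.4, 52.5, 65.6 and 88.5 CPM against 59.4, 55.7 and 60.4 CPM. Mouse 64 was the lowest of the 8, and the log2 difference was 0.45 (95% interval 0.00 to 0.90). Mouse 64 was also the lowest aDR mouse for Tsc22d3, Hif3a and Fkbp5, while mouse 67 was the highest for Fmo2, Hif3a, Tsc22d3 and Fkbp5. The receptors Nr3c1 and Nr3c2 had log2 differences of -0.03 and -0.06, and Zbtb16 had 0.32 with overlapping groups (28.5 to 68.2 CPM in aDR, 29.4 to 50.8 in AL).

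Astrocyte genes did not share a direction. Of 14 markers, 2 were higher (Etnppl and Fgfr3) and 1 was lower (Fabp7) at an unadjusted p under 0.05, and the median was 0.02. Etnppl and Fabp7 were also in the panel chosen with earlier results of these data known. The higher count was 1 without aDR mice 61, 65 or 67 or AL mice 66 or 69, and the lower count was 2 without aDR mice 62 or 67. Fabp7, the brain fatty acid binding protein of astrocytes and radial glia, measured 27.3, 25.1, 30.3, 27.8 and 24.6 CPM in aDR and 59.0, 37.2 and 54.2 CPM in AL. The aDR mice were tightly grouped below all AL mice, with a log2 difference of -0.87 (SE 0.14, 95% interval -1.20 to -0.55, edgeR adjusted p = 0.537; DESeq2 adjusted p = 8.14e-04). Etnppl, an astrocyte enzyme that degrades phosphoethanolamine, measured 49.5, 58.8, 32.5, 34.7 and 67.6 CPM in aDR and 27.2, 18.9 and 14.1 CPM in AL. The aDR mice spread over more than their distance to the AL mice, and the log2 difference was 1.36 (SE 0.30, 95% interval 0.68 to 2.04; DESeq2 adjusted p = 0.0118). Gfap, the marker of reactive astrocytes, was 321 to 1180.4 CPM in aDR and 340.2 to 515 CPM in AL, highest in mice 61 and 62, the same mice that were highest in myelin genes. The summed astrocyte list overlapped between the groups (4071 to 5905 CPM in aDR, 4463 to 4988 in AL).

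Cldn5 and Flt1 had lower values and Mfsd2a had higher ones among genes of the vessel wall. Of 15 endothelial genes, 4 were lower and 1 was higher at an unadjusted p under 0.05, beside 2.18% and 2.01% of all genes. A difference below 0 was found for 12, beside 7073 of all 14160 genes. The summed list was 959.5 to 1076 CPM in aDR and 1081 to 1169 CPM in AL. That separation rested on Bsg, a membrane protein abundant in brain endothelium that made up 61.5% of the sum: without it the list summed to 353 to 422 CPM in aDR and 395 to 469.7 CPM in AL, which overlap. Cldn5, a tight junction protein of the blood-brain barrier, measured 9.5, 7.76, 9.26, 8.79 and 9.19 CPM in aDR and 11.8, 12.2 and 12.8 CPM in AL. Every aDR mouse was below every AL mouse, with a log2 difference of -0.47 (SE 0.12, 95% interval -0.74 to -0.21). Flt1, a VEGF receptor, measured 42.9, 37.4, 38.6, 43.5 and 46.0 CPM against 47.6, 50.1 and 61.6 CPM (log2 difference -0.36, 95% interval -0.60 to -0.12). The other receptor, Kdr, had overlapping groups (9.22 to 14.2 CPM in aDR, 10.4 to 16.8 in AL) and a log2 difference of -0.29 with a 95% interval from -0.72 to 0.14. Without AL mouse 69 Flt1 was -0.23 and Kdr -0.05. Bsg (-0.16) and Itm2a (-0.24, and -0.14 without AL mouse 69) completed the 4.

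The higher gene was Mfsd2a, the transporter that carries lysophosphatidylcholine with omega-3 fatty acids across the blood-brain barrier. It measured 20.8, 18, 18.2, 17.8 and 18.8 CPM in aDR and 13.6, 12.2 and 13.7 CPM in AL. No aDR mouse reached down to the AL range, and the log2 difference was 0.51 (SE 0.10, 95% interval 0.28 to 0.73, edgeR adjusted p = 0.841). Among 10 mural genes, 3 were lower (Cspg4, Kcnj8 and Rgs5) and 0 higher, and without AL mouse 69 the count was 0. The endothelial counts were 2 lower and 2 higher without AL mouse 69 or aDR mouse 64, and 2 lower and 1 higher without AL mouse 63. Slc2a1, the glucose transporter of the barrier (94.1 to 112 CPM in aDR, 87.2 to 103 in AL), and Slco1a4 (34.5 to 46.4 CPM and 34.9 to 44.1) also had a difference above 0, with overlapping groups.

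Among single genes outside these groups, Rtp1 and Mthfd1l led on the higher side. Rtp1, which helps odorant receptors reach the cell surface, measured 7.04, 10.1, 9.17, 9.40 and 9.74 CPM in aDR and 3.63, 2.89 and 4.33 CPM in AL (log2 difference 1.32, SE 0.20, 95% interval 0.87 to 1.77, edgeR adjusted p = 0.537; DESeq2 adjusted p = 0.00162). Mthfd1l, the mitochondrial enzyme that makes formate from folate-bound carbon, measured 17.5, 16.5, 17.6, 18.5 and 20.6 CPM against 11.8, 12.1 and 10.3 CPM (log2 difference 0.68, SE 0.11, 95% interval 0.42 to 0.94). Both genes had separate groups with narrow spread. Gsr, glutathione reductase, was 59.5 to 66.4 CPM in aDR and 49.3 to 54.1 CPM in AL, and Tekt4, a tektin of cilia, was 0.817 to 1.57 CPM against 0 to 0.454 CPM, a low level at which a library of 2.22 M counts holds few reads.

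On the lower side, Dleu2 followed Fabp7. This long non-coding RNA overlaps the Mir16-1 locus, which shares its reads. It measured 12, 12.4, 11.6, 11.7 and 10.4 CPM in aDR and 18.6, 16.1 and 18.2 CPM in AL. The groups were separate, and the log2 difference was -0.59 (SE 0.11, 95% interval -0.83 to -0.36, edgeR adjusted p = 0.687). Fam163a was 15.9 to 19.3 CPM in aDR and 24.0 to 25.7 CPM in AL (-0.46). Fubp1, a single-stranded DNA binding regulator of transcription, was 92.2 to 102 CPM against 114 to 118 CPM (-0.26). AC133601.1 (-1.06), Rexo4 (-0.34), Wdr78 (-0.48), the helicase-like factor Hltf (-0.37) and Kctd21 (-0.40) were also among the 10 genes of smallest p on this side, each with separate groups. AC133601.1 overlaps Arhgap26 and Wdr78 overlaps Mier1, so their reads are uncertain.

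Heat shock chaperones leaned lower. Of 23 tested, 5 were lower and 0 higher at an unadjusted p under 0.05, beside 2.18% and 2.01% of all genes. A difference below 0 was found for 16, beside 7073 of all 14160 genes, with a median of -0.07. The 5 were Dnajb5 (-0.37), Chordc1 (-0.30), Hsph1 (-0.21), Ahsa1 (-0.18) and Stip1 (-0.17), of which Chordc1, Ahsa1 and Stip1 are co-chaperones of HSP90. Stip1 measured 174, 185, 170.0, 179.9 and 191 CPM in aDR and 204, 206 and 200.1 CPM in AL, the tightest of the 5. Chordc1 measured 59.2, 71.2, 66.6, 69.5 and 82.1 CPM against 82.5, 91.9 and 83.0 CPM, so that mouse 67 nearly touched the AL mice. Without AL mouse 66 the count was 1. The abundant Hspa8 overlapped between the groups (2253 to 2673 CPM in aDR, 2480.5 to 2879.6 in AL), and the stress-induced Hspa1a had a difference of 0.06. In the unfolded protein response of the endoplasmic reticulum, Calr (-0.22) and Hsp90b1 (-0.14) were the 2 of 22 genes at such a p, both lower, and the count was 1 without aDR mice 61, 65 or 67 or AL mice 63 or 69.

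Neuronal activity genes showed low values in aDR that rested on few mice. Of 25 immediate early genes, 21 had a difference below 0, beside 7073 of all 14160 genes, and the median was -0.23. Yet 1 (Npas4) had an unadjusted p under 0.05, beside 4.19% of all genes. Npas4, an activity-dependent transcription factor, measured 1.34, 3.71, 4.63, 6.64 and 5.04 CPM in aDR and 3.63, 7.71 and 14.4 CPM in AL. The groups overlapped, and the log2 difference of -1.10 (95% interval -2.14 to -0.05) was -0.51 without AL mouse 69. Without that mouse 13 of the 25 genes were below 0, the median was -0.01 and 0 genes had such a p, whereas without the shallow AL mouse 63 there were 6. Egr1 was 93.3 to 150.3 CPM in aDR and 112 to 204 CPM in AL. The direction of the list in entorhinal cortex therefore depends on a single control mouse. That mouse was also low in hippocampal markers (313 CPM), and aDR mouse 64 was lower (181 CPM). The immediate early genes summed to 1892 CPM in AL mouse 69 and 1444 CPM in aDR mouse 64. Whether tissue make-up had a part in this was not tested.

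Synaptic genes overlapped between the diets in all members of 3 lists except Syp. Of 30 genes of glutamate receptors and the postsynaptic density 1 was lower at an unadjusted p under 0.05 (Shank1), of 21 presynaptic vesicle genes 1 (Syp), and of 20 GABA genes 0. Without aDR mouse 64 the lower genes were 4 of the glutamate, 2 of the presynaptic and 1 of the GABA list, and without AL mouse 63 they were 0, 3 and 0. Syp, synaptophysin, measured 185, 197, 231, 207 and 209 CPM in aDR and 235, 267 and 259.5 CPM in AL (log2 difference -0.31, SE 0.082, 95% interval -0.49 to -0.12), with mouse 64 close below AL mouse 63. Syp overlaps the gene Gm14703. Shank1, a postsynaptic scaffold, measured 150.4, 139, 195, 174 and 144 CPM against 222, 184 and 202 CPM, with overlap. Among 21 neurotrophin and neuropeptide genes the receptor Ngfr (0.70) was higher, led by mouse 62 at 8.18 CPM, and 0 were without aDR mouse 61, aDR mouse 62 or any AL mouse.

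Of the genes of Alzheimer and Parkinson disease, Pink1 had higher values in aDR. Pink1, a mitochondrial kinase of mitophagy, measured 612, 651, 595, 541 and 563 CPM in aDR and 522, 493 and 488 CPM in AL (log2 difference 0.24, SE 0.076, 95% interval 0.07 to 0.41). Every aDR mouse was above every AL mouse, the nearest being mouse 65. The median over the 25 genes of that list was -0.01.

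Metabolic and growth lists had few members at an unadjusted p under 0.05. In insulin, IGF and mTOR signalling, Akt1 was the 1 of 33 genes at an unadjusted p under 0.05. This kinase of insulin signalling measured 177, 171, 176, 167 and 171 CPM in aDR and 146, 148 and 152 CPM in AL, with narrow, separate groups and a log2 difference of 0.21 (SE 0.054, 95% interval 0.09 to 0.33). Among 27 genes of fasting, ketone and fatty acid metabolism, 1 was higher, the lipid receptor Ppara (0.54, 4.99 to 6.38 CPM against 3.43 to 4.83 CPM). In cholesterol synthesis, Lss, lanosterol synthase, was higher (0.35, 47.3 to 52.9 CPM against 33.1 to 41.6 CPM) and Msmo1 lower (-0.16), of 24. Autophagy and lysosome genes included 1 higher (Atg13, 0.15) and 1 lower (Hexa, -0.27) of 27.

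Nuclear genes of respiratory complexes I and V (0 of 33) and cytosolic ribosome genes (0 higher, and Rpl38 and Rps15 lower, of 50) had medians of -0.06 and -0.08, and these turned to 0.06 and 0.05 without the shallow AL mouse 63. Neither list therefore has a stable direction here, and 7 ribosome genes were lower without AL mouse 66. Complement, MHC class I and interferon genes (0 of 23) and p53 and senescence genes (0 of 17) had no member at such a p. Of the p53 list 15 had a difference above 0, beside 7087 of all 14160 genes tested. Without aDR mouse 64, 3 genes of this list were higher at such a p. C4b, a complement gene, was 38.9 to 118 CPM in aDR and 34.0 to 50.1 CPM in AL, high in mice 61 and 62. Of 15 microglial genes, Fcrls was lower (17.6 to 22.6 CPM against 23.6 to 31.3 CPM) and 0 were higher. The haemoglobin gene Hba-a1 was higher (1.47 to 6.59 CPM against 0.907 to 2.58 CPM), and the 9 blood genes summed to 9.40 to 25.9 CPM in aDR and 4.54 to 10.8 CPM in AL. At such levels the library of AL mouse 63 holds few reads. Of the remaining marker lists, oligodendrocyte precursors and meninges each had 1 lower member (Cspg4 and Col1a1) and excitatory neurons, inhibitory neurons, entorhinal layers, hippocampal formation, striatum and choroid plexus 0.

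**Figure D4:**
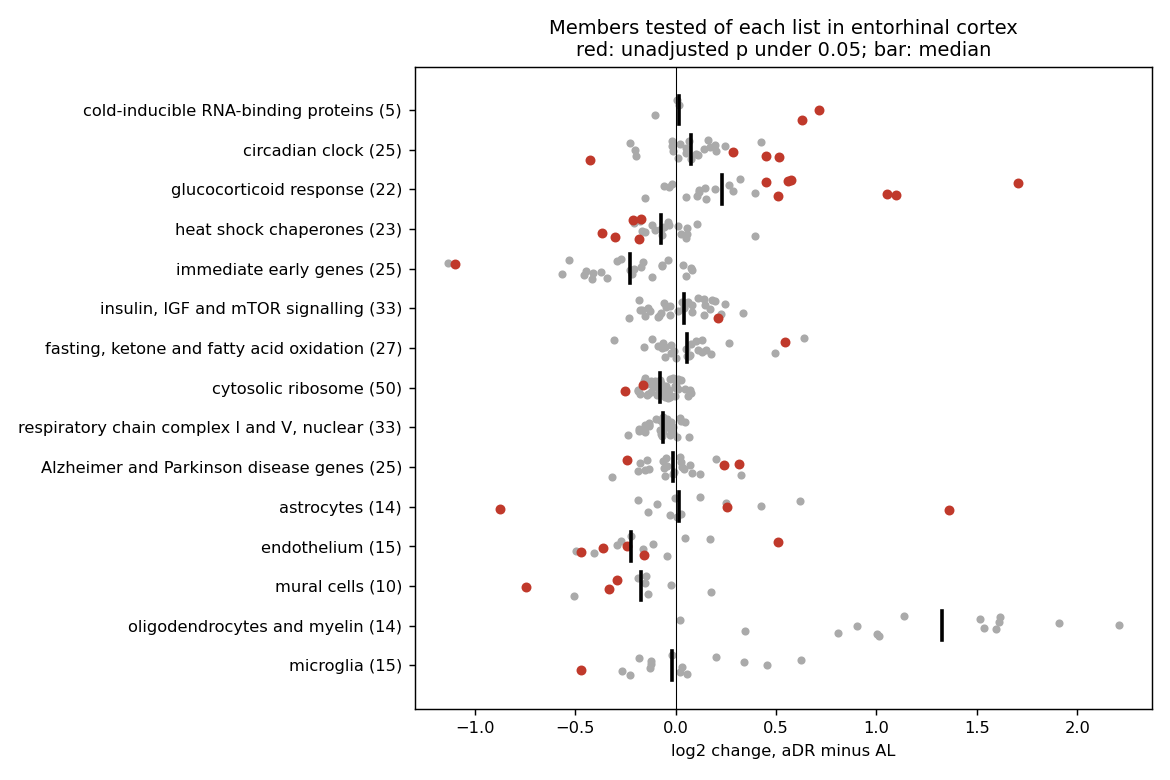
Log2 difference (x axis, aDR minus AL) of each tested member of 15 gene lists (y axis, number tested in brackets), with the median as a black bar and members at an unadjusted edgeR p under 0.05 in red. The glucocorticoid list has 7 such members, all higher, the heat shock list 5, all lower, and the myelin list a median of 1.32 with 0 such members.

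A panel of 25 genes, chosen with earlier results of these data known, was followed in entorhinal cortex as well. Beside the genes above, Kirrel2 (0.65) and Hmgb3 (0.32) had an unadjusted p under 0.05 with overlapping groups, since AL mouse 63 or 66 lay within the aDR range. Kirrel2, a cell adhesion protein, was 9.79 to 12.7 CPM in aDR and 5.57 to 10.4 CPM in AL. Hrh3, the presynaptic histamine receptor, was 168 to 193 CPM in aDR and spread from 88.9 to 178 CPM in AL. Tmem45a was at most 3.74 CPM, with overlapping groups.

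The same mice gave motor and visual cortex libraries, so the 3 diet comparisons share animals and their values are set side by side only. With 1 more AL mouse, 33 of 13128 genes (0.251%) were called in motor cortex and 27 of 13359 (0.202%) in visual cortex. Rbm3 had log2 differences of 0.71 in entorhinal, 0.70 in motor and 0.55 in visual cortex, and Cirbp 0.63, 0.58 and 0.65. Etnppl had 1.36, 1.15 and 1.15, and Cry1 0.45, 0.38 and 0.43. Ciart had 0.51 in entorhinal cortex and 0.83 and 0.90 in motor and visual cortex, Plin4 1.70, 2.55 and 2.76, and Fabp7 -0.87, -0.97 and -0.35. Ciart and Plin4 were thus smallest in entorhinal cortex and Fabp7 smallest in visual cortex.

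Whether the diet difference itself differed between regions was tested as an interaction. Against motor cortex 0 of 14332 genes (0%) passed the adjusted threshold in edgeR and 358 (2.5%) had an unadjusted p under 0.05. Against visual cortex the counts were 0 of 14197 (0%) and 286 (2.01%), and DESeq2 called 0 in both. With the mouse as a replicate block both counts of calls stayed 0. The smallest p against motor cortex belonged to Dleu2: its diet difference was -0.59 in entorhinal and -0.03 in motor cortex, a difference of -0.57 (95% interval -0.86 to -0.28, edgeR adjusted p = 1). On the other side stood Akt1, with 0.21 in entorhinal and -0.09 in motor cortex (difference 0.30, interval 0.13 to 0.48). Akt1 measured 167 to 177 CPM in restricted entorhinal cortex against 146 to 152 CPM in controls, while in motor cortex both diets ran from 115 to 147 CPM.

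Against visual cortex the smallest p belonged to Ppp1r3g, a subunit that targets a phosphatase to glycogen. It measured 33.6 to 38.4 CPM in restricted and 19.4 to 24.6 CPM in freely fed visual cortex, but 9.89 to 12 CPM and 6.80 to 12.2 CPM in entorhinal cortex. The diet difference was 0.75 in visual and 0.02 in entorhinal cortex, a difference of -0.75 (95% interval -1.11 to -0.40, edgeR adjusted p = 1). Zfp93, a zinc finger gene, led on the other side (0.48). For the genes named above the intervals were wide: the difference from motor cortex was 0.01 for Rbm3 (-0.24 to 0.27), 0.07 for Cirbp (-0.21 to 0.35), -0.31 for Ciart (-0.60 to -0.01), -0.85 for Plin4 (-2.28 to 0.58) and -0.39 for Per1 (-0.67 to -0.11). For visual cortex it was -0.37 for Ciart (-0.74 to -0.01), -1.07 for Plin4 (-2.60 to 0.47) and -0.53 for Fabp7 (-1.05 to 0.00), each with an edgeR adjusted p of 1. These intervals come from the fit without the mouse block. With the block Ciart was -0.30 (-0.58 to -0.02) against motor and -0.32 (-0.68 to 0.03) against visual cortex. Per1 was then -0.32 (-0.62 to -0.03) against motor cortex. Per1, with a diet difference of -0.02 in entorhinal cortex, had 0.38 in motor and 0.25 in visual cortex.

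Young plasma was a further intervention measured in the same region, entorhinal cortex. The diet difference minus the plasma difference passed the adjusted edgeR threshold in 0 of 14280 genes (0%), with 428 (3%) at an unadjusted p under 0.05. The smallest p was that of Cirbp, which measured 102, 92.7 and 94.7 CPM in YMP mice and 100.2, 123, 109.9 and 116 CPM in PBS mice. Its plasma difference was -0.22 where its diet difference was 0.63, and the 2 differed by 0.85 (95% interval 0.54 to 1.15, edgeR adjusted p = 0.411). DESeq2 called this difference, as its 1 gene (0.86, adjusted p = 1.39e-04), and edgeR did so without AL mouse 63 (0.97, adjusted p = 0.0466). Rbm3 differed by 0.94 (0.49 to 1.39), having a plasma difference of -0.22. Fam163a led on the lower side, with -0.46 under diet and 0.28 under plasma (-0.74). The YMP and PBS mice were male and the diet mice female, so the difference of interventions and of sex cannot be told apart.

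**Figure D5:**
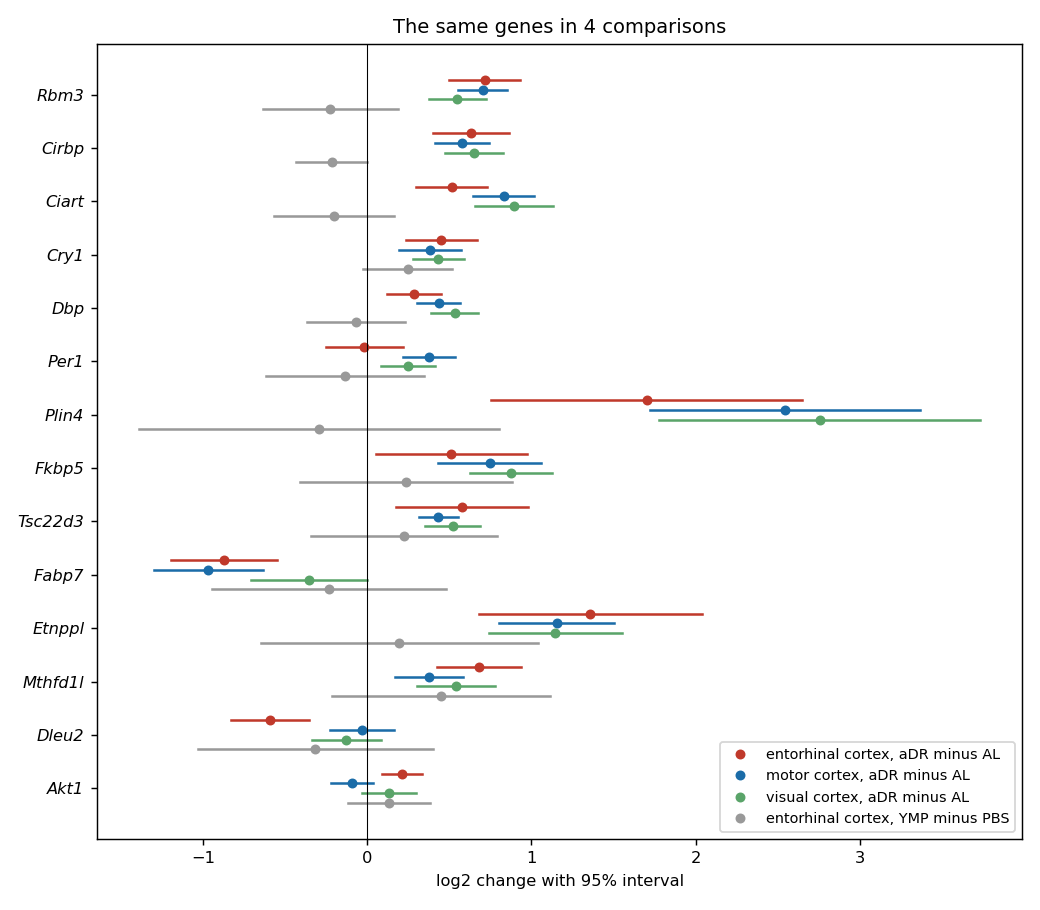
Log2 differences with 95% intervals (x axis) of 14 genes in entorhinal, motor and visual cortex for aDR minus AL and in entorhinal cortex for YMP minus PBS. Rbm3, Cirbp and Etnppl have intervals above 0 in the 3 diet comparisons, while Dleu2 is lower in entorhinal cortex (-0.59) beside -0.03 in motor cortex.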

How the data were processed

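Bulk mRNA was extracted with RNeasy columns from homogenised tissue, copied to cDNA by Smart-Seq2 and made into unstranded Nextera XT libraries, per the labels. The deposited values are raw read counts per gene made by the authors, in 1 table of 21076 genes and 238 libraries. Per the submitters' processing notes, Trim Galore 0.3.7, STAR 2.5.3a, DESeq2 and the build GRCm38 were used. The counting program and annotation are not given in the sources used here. Counts cannot separate overlapping genes of opposite strands, and reads carry PCR copies without molecular identifiers. Beside the overlaps given with the results, Nr1d1 overlaps Thra, Sult1a1 overlaps Sgf29 and Hexa overlaps Tmem202. Usp2, Arntl, Hrh3, Lss, Pink1, Ahsa1, Shank1, Hsp90b1 and Fgfr3 overlap other annotated genes as well.

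The 8 entorhinal libraries were fitted with edgeR 4.0.16 (R 4.3.3; quasi-likelihood test, TMM, filterByExpr at 10 counts per library and 15 in total, no covariates) and called at a Benjamini-Hochberg adjusted p under 0.05. CPM use TMM-scaled library sizes. In the tissue check the scaling was made over all libraries of that check together. Standard errors come from the coefficient and its F statistic. Interactions were fitted over 4 groups. The edgeR fits were tested on simulated data. Alternatives were DESeq2 1.42.0, limma 3.58.1 voom, other scaling and filters, a shared spread and leaving out each mouse. List counts without each mouse and marker sums without the most abundant gene were chosen after seeing the data.

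Members, lists and panel were chosen with earlier results of these data known. Named were the 10 genes of smallest p on each side, the panel, pathway members at an unadjusted p under 0.05, the leading interaction genes, DESeq2 calls and markers. Mapk11, Per3, Egr1, Gfap, Nr3c1, Nr3c2, marker genes at such a p and genes of the tissue make-up were named after their values were seen. Positions of genes are from GENCODE on GRCm38, where all 75 named genes were found. There were 4 list genes that were not analysed here, and some genes that the rule names are not reported here.

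Mouse numbers mark the same animal across regions, per the labels. Deviations from group means of same-numbered libraries correlated by 0.065 on average with motor cortex and 0.043 with visual cortex over 8 mice, against -0.018 and -0.011 between different mice.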

Additional observations from a re-analysis of the deposited data

Results flagged for a closer look

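Within the 5 aDR mice, 4 values stood apart from the rest of their group by Dixon's criterion, among 57 groups tested. Chance flags about 1 in 20. Cirbp in mouse 67 was 186 CPM beside 219 to 222 CPM in the other aDR mice, and still above every AL mouse. Hltf in mouse 64 was 30.1 CPM beside 24.2 to 25.8 CPM. Arntl in mouse 61 was 25.6 CPM beside 31.4 to 33.7 CPM. The summed hippocampal markers of mouse 64 were 181 CPM beside 593 to 748 CPM, and that mouse was also the lowest aDR mouse for several glucocorticoid-responsive genes.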

How the results depend on the processing

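The count of genes called in entorhinal cortex was 0 under limma voom, RLE scaling, no filter, a filter at a mean of 1 CPM and sample quality weights (chosen after seeing the depth of AL mouse 63), 5 with DESeq2 and 6 with the spread shared over 3 cortical regions. It was 0 with each mouse left out. The shared spread counted libraries of the same mouse as independent. The count at an unadjusted p under 0.05 was 1165 with the shared spread and 368 to 861 with each mouse left out, lowest without aDR mouse 61, and 439 to 797 elsewhere. The difference from plasma had 1 call with DESeq2, and 0 to 1 with each mouse left out. The replicate block left both interactions with cortex at 0 calls, with 315 (motor) and 248 (visual) genes at an unadjusted p under 0.05, and changed no call. Of the named genes, 10 comparisons with an alternative passed a threshold that was missed before, 1104 kept their side and direction and 9 turned. Per1 turned to 0.0065, 0.031 and 0.030 without aDR mice 61 and 62 and AL mouse 69. Ppp1r3g in entorhinal cortex turned to -0.0070 with DESeq2, -0.055 with voom, -0.021 with the shared spread, -0.0093 with quality weights, -0.0046 without aDR mouse 65 and -0.13 without AL mouse 63, while it ran up to 0.14 without AL mouse 66. Both lie near 0, and the cause was not tested. With 3 controls, 1 of them at 2.22 M counts, the median standard error was 0.31 in the lowest of 4 equal bins of genes by level and 0.087 in the highest.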
